A study of Rattus norvegicus with 12 samples.

Results

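The comparison of the high with the middle dose of taurochenodeoxycholic acid (TCDCA) used 6 of the 12 libraries of the experiment, 3 of the AT10 group (10 µM, 1e-05 M) and 3 of the AT1 group (1 µM, 1e-06 M). Its members were the 11611 of 22442 gene records whose mean over the 12 libraries was at least 1 FPKM (fragment counts scaled to the length of the transcript and the size of the library), and each was compared as log2(FPKM + 1), AT10 minus AT1. All libraries were of fibroblast-like synoviocytes (FLS) in culture, the cells of the synovial lining, taken at the third passage from male Sprague Dawley rats with adjuvant arthritis (AA) after an injection of CFA in the paw. TCDCA was given for 12 h. The remaining libraries were used here only to place the levels, 3 of the FCA group (the same cells in DMEM alone) and 3 of the AT01 group (TCDCA at 0.1 µM, 1e-07 M). Both groups compared carried the arthritis model and the bile acid, and nothing in the labels says whether the 3 libraries of a group came from separate animals or from dishes of 1 preparation, so that p-values measure the spread between these libraries, which may be technical.

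TCDCA is chenodeoxycholic acid joined to taurine, one of the bile acids that the liver makes from cholesterol. Bile acids act on cells through the nuclear receptor FXR (Nr1h4) and the membrane receptor TGR5 (Gpbar1), and TGR5 raises cAMP, which activates PKA and the transcription factor CREB. In arthritis, FLS are known for making cytokines, prostaglandins and the proteases that degrade cartilage, and for laying down matrix. Immediate early genes, of which many encode transcription factors, are switched on within minutes of a growth factor, stress or cAMP signal without the need of new protein, and their mRNAs are short-lived.

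The FPKM values come without read counts, so the depth behind a single value is unknown and no counting error is given. In the 6 libraries, Pearson's correlation of log2(FPKM + 1) lay between 0.943 and 0.947 within the groups (6 combinations) and between 0.937 and 0.947 across them (9 combinations). Of the 15 FLS markers looked for, 13 had a record and all of these were tested, with the collagen genes Col1a1 and Col3a1 at 571.15 FPKM or more and the surface protein Thy1 at 112.46 FPKM or more in every library of the 2 groups. Of 14 macrophage markers, 2 were tested, Cd14 and Cd68. Cd68 was between 1.66 and 2.91 FPKM, Csf1r, Adgre1, Aif1, Fcer1g, Lyz2 and Mrc1 had at most 0.5 FPKM in the 6 libraries, and the other 6 had no record here. The summed level of the macrophage list was between 18.88 and 21.72 FPKM in AT10 and between 5.89 and 17.89 FPKM in AT1. Most of it was Cd14, at 18.35, 16.46 and 16.36 FPKM in AT10 and at 3.60, 15.70 and 15.73 FPKM in AT1. Over the 12 libraries Cd14 had 2 separate levels (defined below). The 3 libraries at the lower level were replicate 1 of AT1, replicate 3 of FCA and replicate 1 of AT01. The sum of 5.89 FPKM was that of AT1 replicate 1. Of 10 endothelial markers only Egfl7 was tested (16.84 to 21.91 FPKM), with Cdh5, Tek, Kdr, Vwf, Tie1, Emcn and Esam at 0.12 FPKM or less, and none of 10 lymphocyte markers reached the level needed for the test.

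With a Benjamini-Hochberg adjusted p under 0.05 in limma over all 11611 records, 30 genes differed between the doses, which is 0.258% of the records, 7 of them higher in AT10 (0.0603%) and 23 lower (0.198%). The count was 1 with the replicate number as a block and 3 with a fit over all 12 libraries, and it was 19 higher and 31 lower without AT1 replicate 3 and 16 higher and 27 lower without AT1 replicate 2. The looser criterion that the study applied (p under 0.05 before adjustment, and a difference larger than 1 on the log2 scale in either direction) called 69 genes (0.594%), 24 higher (0.207%) and 45 lower (0.388%), or 20 higher and 86 lower without AT10 replicate 3. An unadjusted p under 0.05 alone was reached by 750 records (6.46%), 316 higher (2.72%) and 434 lower (3.74%). In 1610 records (13.9%) the 3 AT10 libraries did not overlap with the 3 AT1 libraries, in 662 all AT10 libraries being higher (5.7%) and in 948 all being lower (8.16%). The median difference over all records was -0.01, and over the 1610 records without overlap the median size was 0.22 on the log2 scale, with 73 above 1. An exact permutation test of 3 libraries against 3 cannot go below p = 0.1 (two-sided), so only the fit across all records can call a single gene. With 6 interchangeable libraries a record would lack overlap with a probability of about 0.1. An unadjusted p would then fall under 0.05 with a probability of 0.05.

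**Figure D1:**
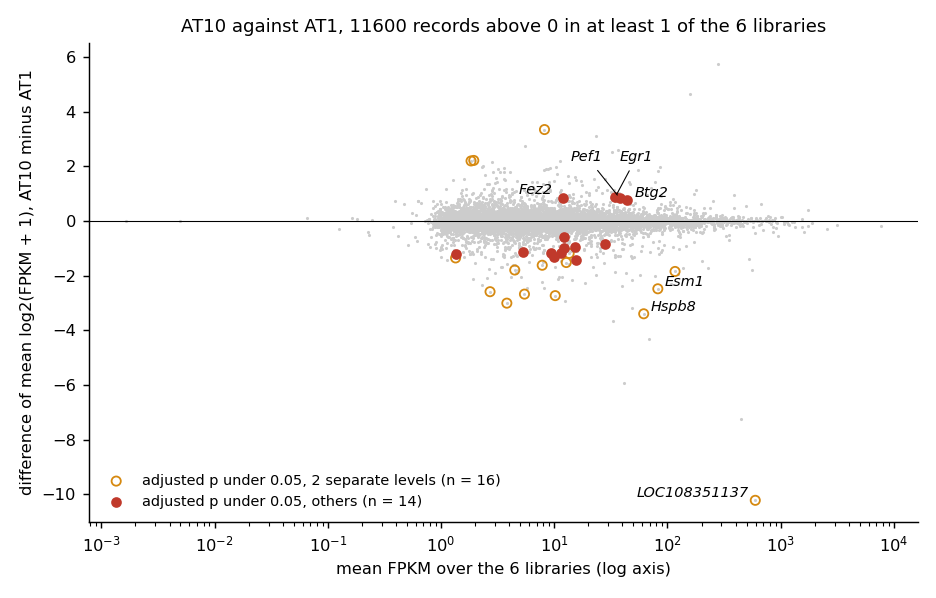
Difference between AT10 and AT1 (vertical axis, log2(FPKM + 1)) against the mean FPKM over the 6 libraries (horizontal log axis) for the 11600 records above 0 in at least 1 of them, each grey point being a record. Red points are the 14 called genes that did not meet the definition of 2 separate levels (a gap of 1 or more on the log2 scale). Of these, Egr1, Pef1, Btg2 and Fez2 lie above 0 and the other 10 below. Open circles are the 16 called genes that met it over the 12 libraries.

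Of the lists with at least 10 genes tested, the immediate early genes had the largest share that lay higher at the high dose. Of 26 listed, 23 were tested, of which 21 were higher in AT10 and 2 lower, with a median difference of 0.30 on the log2 scale against -0.01 over all records. The AT10 libraries all lay above the AT1 libraries for 10 of the 23 (43.5%, against 5.7% of all records) and below for none. Those 10 also had an unadjusted p under 0.05, and 2 of them, Egr1 and Btg2, rose with an adjusted p under 0.05. In bulk RNA, a gene that is higher in some of the cells and one that is higher in every cell cannot be told apart.

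Egr1, the zinc-finger transcription factor of the early growth response, was at 46.70, 46.98 and 41.54 FPKM in AT10 and at 24.33, 25.49 and 22.42 FPKM in AT1. Every AT10 library was far above every AT1 library, a difference of 0.88 ± 0.08 (SE, limma, adjusted p = 0.0261), or 1.84-fold on the FPKM + 1 scale. In cells without TCDCA Egr1 was at 40.10, 43.20 and 41.89 FPKM, and at 0.1 µM at 22.32, 28.21 and 23.36 FPKM, so that FCA lay at the level of the high dose and the low dose at that of the middle dose. The call of Egr1 was kept in only 1 of the 6 fits with a library left out (adjusted p from 0.0353 to 0.117, difference from 0.83 to 0.93). It was kept with 1 limma fit over all 12 libraries (adjusted p = 0.0134), and lost with no filter on low records (adjusted p = 0.0639), with a nested F test like that of Ballgown (0.283) and with a replicate block (0.175).

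Btg2, an antiproliferative gene that p53 and growth signals both switch on, was at 58.11, 54.75 and 54.84 FPKM in AT10 and at 35.14, 33.39 and 29.40 FPKM in AT1. The difference was 0.76 ± 0.08 (SE, limma, adjusted p = 0.0475), and it passed in only 1 of the 6 fits with a library left out (adjusted p from 0.0492 to 0.177). Its level was 51.93 to 56.58 FPKM in FCA and 28.01 to 43.16 FPKM in AT01.

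The next genes of the list did not pass the adjusted test, but their groups did not overlap. Nr4a1, an orphan nuclear receptor that is itself a CREB target, was at 99.57, 98.44 and 89.66 FPKM in AT10 against 68.66, 72.88 and 67.57 FPKM in AT1 (0.45 ± 0.07, SE, limma adjusted p = 0.16). In FCA it lay between 93.37 and 98.87 FPKM and in AT01 between 66.91 and 74.90 FPKM, so that, as for Egr1, FCA lay near the high dose and AT01 near the middle dose. Dusp5, a phosphatase that switches off ERK in the nucleus, was at 4.83, 4.24 and 4.82 FPKM in AT10 against 2.54, 2.50 and 3.10 FPKM in AT1 (0.60 ± 0.10, adjusted p = 0.216). Myc, the growth-promoting transcription factor, was at 23.06, 24.92 and 26.45 FPKM against 17.76, 19.86 and 16.84 FPKM (0.43 ± 0.09, adjusted p = 0.431).

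The other 5 were lower in level or smaller in difference. The AP-1 subunits Jun and Fos, which pair to bind DNA, were at 21.33, 21.72 and 22.64 FPKM (Jun) and 8.63, 6.65 and 6.15 FPKM (Fos) in AT10, and at 15.27, 18.76 and 18.55 FPKM (Jun) and 4.54, 5.91 and 5.32 FPKM (Fos) in AT1. Egr2, a relative of Egr1, was at 2.69, 2.37 and 2.43 FPKM against 1.07, 1.92 and 0.37 FPKM. Ier2, a nuclear early response protein, was at 30.59, 32.16 and 27.81 FPKM against 23.31, 25.10 and 26.05 FPKM, and the transcription factor Klf4 at 4.96, 5.56 and 5.39 FPKM against 4.35, 4.31 and 4.33 FPKM. Their differences were 0.31 for Jun, 0.37 for Fos, 0.79 for Egr2, 0.27 for Ier2 and 0.24 for Klf4, with limma adjusted p between 0.702 and 0.748. These 5, Dusp5 and Myc were named after their values were seen.

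The remaining members of the list varied without order or hardly differed. Zfp36, which promotes the decay of cytokine mRNAs, was at 36.75, 38.30 and 27.29 FPKM in AT10 against 27.97, 26.94 and 26.86 FPKM in AT1 (0.30 ± 0.14). Ier3 (111.59 to 129.03 FPKM against 76.93 to 137.03 FPKM) spread widely within AT1. The MAP kinase phosphatase Dusp1 (40.68 to 180.69 FPKM against 48.41 to 179.10 FPKM) did so within both groups. Ier5 fell into 2 separate levels that did not follow the dose. The 2 members lower in AT10 were Ier5 and Klf10. Outside the list, the groups of Csrnp1, a nuclear protein induced with the early response, did not overlap, at 21.86, 22.10 and 22.91 FPKM in AT10 against 17.39, 16.74 and 16.08 FPKM in AT1 (0.39 ± 0.06, adjusted p = 0.162), and neither did those of the Nr4a1 relative Nr4a2, at 22.49, 22.70 and 26.19 FPKM against 17.04, 17.65 and 17.96 FPKM (0.42 ± 0.08, adjusted p = 0.364).

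The means of the other groups were set against both doses over the list. The mean of FCA was nearer to AT10 than to AT1 for 18 of the 23 genes, and the mean of AT01 was nearer to AT1 for 19, with both holding for 14 (60.9%) against 21.4% of all 11611 records. The mean log2(FPKM + 1) over the 26 listed genes was 3.39 to 3.45 in the AT10 libraries, 3.09 to 3.28 in AT1, 3.42 to 3.58 in FCA and 3.06 to 3.30 in AT01. By this mean every FCA library lay above every AT1 library, and every AT01 library lay below every AT10 library. The FCA and AT01 libraries were not tested here, and the sources used here give no date or batch of the libraries, so a difference in handling between the groups was not tested.

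To show what the first bases before these genes hold, the 250 bases before the start site were taken from the RefSeq promoter table of GRCr8, which is not stated to be the build of the deposited values, and searched on both strands. RefSeq entries were found for 18 of the 26 listed genes and for 7 of the 10 without overlap. The full cAMP response element (CRE), TGACGTCA, to which CREB binds, was in 5 of the 18 (27.8%), and in 3.03% of 7712 promoters of the genes tested and 1.59% of all 33469 promoters. The shorter core TGACG, which is also counted within every full CRE, was in 11 of the 18 (61.1%) and in 30.6% of the genes tested. The CArG box, to which the serum response factor binds, was in 5 of the 18 (27.8%) against 1.17% of the genes tested, and the EGR site GCGTGGGCG in 2 (11.1%) against 1.05%. None of the 18 had an AP-1 site (TGANTCA with C or G at N) or an NF-kB site in this window. Among the 10 without overlap, Btg2 and Ier2 had a full CRE, Egr1 and Dusp5 a pair of CArG boxes and Egr2 a single CArG box, and Nr4a1 had 4 copies of the shorter core. Klf4, the remaining gene found there, had none of the motifs searched. The 4 promoters below are shown as examples that carry one or the other motif within the 250 bases, with the full CRE of Btg2 (chr13:48087691-48087940, minus strand) and Ier2 (chr19:40399123-40399372, plus strand) and the CArG boxes of Dusp5 (chr1:262543524-262543773, plus strand) and Egr2 (chr20:21054442-21054691, minus strand) in capitals, each 5′ to 3′ towards the start site on the strand of the gene.
Btg2: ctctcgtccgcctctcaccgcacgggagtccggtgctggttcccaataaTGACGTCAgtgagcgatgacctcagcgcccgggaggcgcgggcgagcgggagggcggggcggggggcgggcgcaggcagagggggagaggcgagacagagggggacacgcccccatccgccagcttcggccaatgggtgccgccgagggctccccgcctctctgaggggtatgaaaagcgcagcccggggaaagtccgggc
Ier2: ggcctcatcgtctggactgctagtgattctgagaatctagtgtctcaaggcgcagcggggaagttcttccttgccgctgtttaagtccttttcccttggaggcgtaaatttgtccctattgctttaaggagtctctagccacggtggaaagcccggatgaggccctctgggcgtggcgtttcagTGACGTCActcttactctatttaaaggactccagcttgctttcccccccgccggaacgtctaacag
Dusp5: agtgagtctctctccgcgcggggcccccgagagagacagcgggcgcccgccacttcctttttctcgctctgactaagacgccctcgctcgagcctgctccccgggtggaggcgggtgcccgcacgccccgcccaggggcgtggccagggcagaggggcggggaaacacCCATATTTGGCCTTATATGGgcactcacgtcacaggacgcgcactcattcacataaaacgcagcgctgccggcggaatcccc
Egr2: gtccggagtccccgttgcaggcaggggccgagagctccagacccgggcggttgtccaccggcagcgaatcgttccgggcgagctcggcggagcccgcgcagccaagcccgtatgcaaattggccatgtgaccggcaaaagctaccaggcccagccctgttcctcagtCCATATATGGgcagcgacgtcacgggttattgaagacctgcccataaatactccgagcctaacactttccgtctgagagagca
In Ier2 the CRE ended 59 bases before the start site and in Btg2 it ended 194 bases before it, while the nearest CArG box ended 63 bases before it in Dusp5 and 74 bases before it in Egr2. A match describes these letters and is not a measured binding site.

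The list of cAMP, PKA and CREB targets shares 8 of its 29 genes with the immediate early list. Of its 23 tested members, 16 were higher and 7 lower in AT10, the median difference was 0.08, and the groups did not overlap for 6 higher (26.1%, against 5.7% of all records) and 1 lower (4.35%, against 8.16%). The 6 were Egr1, Nr4a1, Nr4a2, Egr2, Fos and Ptgs2, of which 4 stand in the immediate early list as well, and Egr1 alone passed the adjusted test. The lower one was the phosphodiesterase Pde3b, which breaks down cAMP, at 1.87, 1.75 and 1.88 FPKM against 2.16, 2.94 and 2.23 FPKM. Other targets, named after their values were seen, overlapped between the doses, among them Crem at 4.14 to 5.76 FPKM against 4.42 to 5.22 FPKM, Pde4d at 10.81 to 12.63 FPKM against 10.11 to 11.78 FPKM and Sik1 at 4.86 to 5.75 FPKM against 4.79 to 4.90 FPKM. The receptor TGR5 (Gpbar1) did not exceed 0.06 FPKM in the 12 libraries, and FXR had no record under the name Nr1h4. Of 24 genes of bile acid receptors and transporters 7 were tested, with a median difference of 0.00 and 1 without overlap in each direction (14.3% each), the vitamin D receptor Vdr as the lower (3.70, 3.52 and 2.18 FPKM against 3.73, 3.72 and 4.01 FPKM) and the transporter Slco3a1 as the higher (5.92, 6.05 and 6.10 FPKM against 5.66, 5.77 and 5.72 FPKM).

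Inflammatory mediators stood mostly higher at 10 µM, without any passing the adjusted test. Of 23 tested, 16 were higher and 7 lower, with a median difference of 0.23, and the groups did not overlap for 4 higher (17.4%, against 5.7% of all records) and 1 lower (4.35%, against 8.16%). Ptgs2, the inducible cyclooxygenase that makes prostaglandins, was at 40.49, 66.17 and 97.96 FPKM in AT10 against 27.38, 22.48 and 24.43 FPKM in AT1 (1.34 ± 0.32, SE, limma adjusted p = 0.57). All its AT10 libraries were higher, but they spread widely among themselves. The neutrophil chemokine Cxcl2 was at 3.36, 3.60 and 5.91 FPKM against 1.65, 1.47 and 1.46 FPKM (1.04 ± 0.19, adjusted p = 0.343).

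The cytokine Il1a was at 2.82, 3.18 and 5.35 FPKM against 1.60, 1.31 and 2.48 FPKM (0.76 ± 0.25, adjusted p = 0.748). Lif, a cytokine of the IL-6 family, was at 46.23, 48.48 and 78.28 FPKM against 33.64, 40.25 and 35.07 FPKM (0.62 ± 0.22, adjusted p = 0.748). In all 4 genes replicate 3 was the highest AT10 library. It was also the highest of the 6 libraries for Cxcl1 (978.47 FPKM against 322.68 to 479.05 in the others), Ccl2 (2737.13 FPKM against 1336.94 to 1714.27) and Il6 (204.56 FPKM against 109.33 to 193.76), and the list summed to 6686 FPKM in it, 3448 to 3921 FPKM in the other AT10 libraries and 3383 to 4003 FPKM in AT1. Without that library the median of the list was 0.04, with differences of 1.04 for Ptgs2, 0.83 for Cxcl2, 0.54 for Il1a and 0.38 for Lif. The values of the macrophage markers are given above, and their part in these differences was not tested. Icam1, an adhesion molecule for leukocytes, was at 38.36, 38.57 and 36.53 FPKM against 17.52, 18.88 and 36.70 FPKM, a difference of 0.69 that was 1.02 without AT1 replicate 3 (limma adjusted p = 0.0169). For Icam1 that was the only 1 of the 6 fits with a library left out to pass (limma adjusted p up to 0.88). Il6 (0.01 ± 0.28) and Il1b (0.01 ± 0.25) showed no difference beyond their spread. The complement component C3 was lower in every AT10 library, at 15.73, 16.58 and 15.69 FPKM against 17.24, 18.32 and 18.41 FPKM. In 10 of the 25 listed genes found in the promoter table (40%) the 250 bases held an NF-kB site, against 5.29% of the genes tested. Of the 4 genes higher without overlap, 3 were found there and 1 of them held the site. Ptgs2 held none.

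Genes of the extracellular matrix were slightly lower at 10 µM. Of 37 tested genes of structural matrix proteins 31 were lower and 6 higher, the median difference was -0.14, and the groups did not overlap for 10 lower (27%, against 8.16% of all records) and for none higher. Fibronectin (Fn1) was at 1255.17, 1329.28 and 1154.05 FPKM in AT10 against 1502.04, 1393.62 and 1444.40 FPKM in AT1 (-0.22 ± 0.07, SE, limma adjusted p = 0.748). The fibrillar collagen Col5a2 was at 279.73, 281.73 and 284.98 FPKM against 345.44, 336.48 and 317.46 FPKM (-0.24 ± 0.05, adjusted p = 0.537). Col14a1, a collagen of the fibril surface, was at 7.14, 8.05 and 5.65 FPKM against 10.45, 10.49 and 10.18 FPKM (-0.53 ± 0.12, adjusted p = 0.541).

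The other 7 without overlap were Col3a1, Col6a3, Col11a1, Col15a1, Col18a1, Fbln2 and Fbn1, and none of the list passed the adjusted test. The abundant Col1a1 (571.15 to 979.21 FPKM against 816.55 to 852.57 FPKM), Sparc, Bgn, Dcn and Lum overlapped between the doses. AT10 replicate 3 had the lowest mean of the list, 6.28 on log2(FPKM + 1) against 6.41 and 6.55 in the other AT10 libraries and 6.56 to 6.62 in AT1, and without it the median was -0.09. In the control cells and at 0.1 µM the mean was 6.53 to 6.64 (FCA) and 6.38 to 6.49 (AT01).

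Matrix proteases and their inhibitors had 18 of 29 tested members lower, a median difference of -0.08, and no overlap for 7 lower (24.1%, against 8.16% of all records) and 2 higher (6.9%, against 5.7%). Mmp2, gelatinase A, was at 1423.22, 1471.31 and 1335.98 FPKM against 1623.67, 1712.29 and 1627.29 FPKM (-0.23 ± 0.06, SE, limma adjusted p = 0.669), and Plat, the tissue plasminogen activator, at 74.67, 68.68 and 70.59 FPKM against 82.60, 81.74 and 87.37 FPKM (-0.23 ± 0.06, adjusted p = 0.664). The aggrecanase Adamts5 was at 11.88, 11.58 and 10.59 FPKM against 13.13, 13.23 and 13.47 FPKM (-0.21 ± 0.07, adjusted p = 0.739), and Mmp14, the membrane protease that activates Mmp2, at 178.10, 188.16 and 154.90 FPKM against 193.55, 213.64 and 202.72 FPKM (-0.23 ± 0.09, adjusted p = 0.748). Adam9, Adam12 and Mmp16 were the other 3, and Plau, the urokinase, and Adamts9 were the 2 higher. The collagenase Mmp13 (74.09 to 92.23 FPKM against 66.27 to 88.25 FPKM), the stromelysin Mmp3 (485.88 to 708.82 FPKM against 474.99 to 579.53 FPKM) and Mmp9 overlapped. Without AT10 replicate 3 the median was -0.03.

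**Figure D2:**
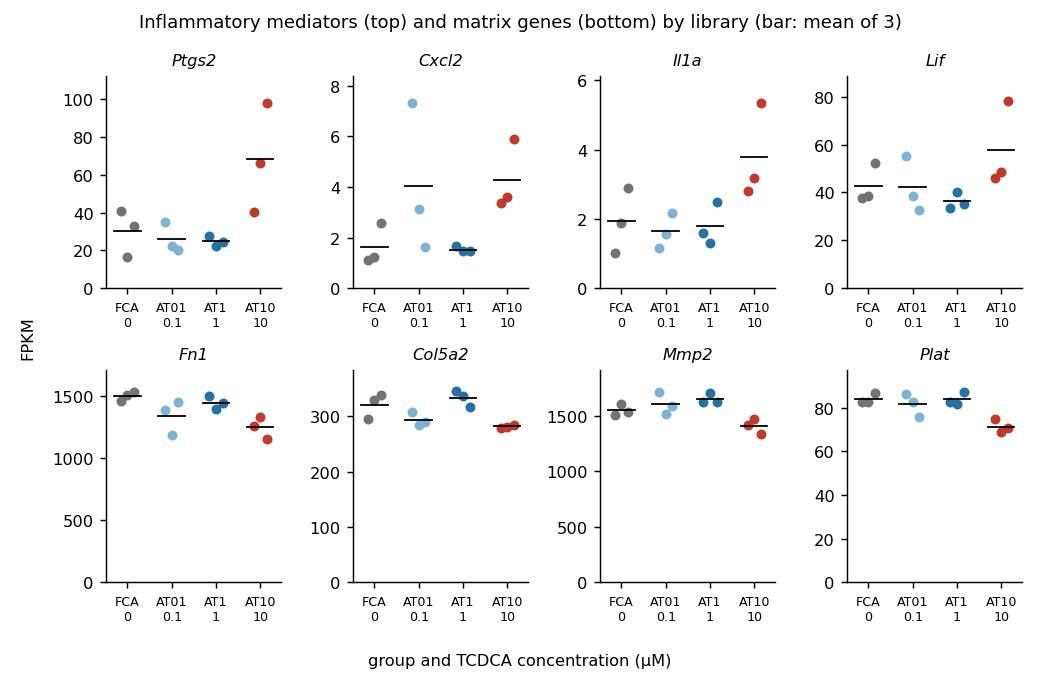
FPKM (vertical axes, from 0) of 4 inflammatory mediators (top row) and 4 matrix genes (bottom row) by group and TCDCA concentration in µM, with a point for each library and a bar for the mean of 3. The AT10 points of Ptgs2 spread from 40.49 to 97.96 FPKM above AT1, while those of Fn1, Col5a2, Mmp2 and Plat lie narrowly below the AT1 points.

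Other processes were covered by further lists, to be read against the 5.7% higher and 8.16% lower without overlap over all records. Of 40 genes of DNA replication and the G1/S step 32 were higher, with a median of 0.10 and 3 higher without overlap (7.5%), none with an unadjusted p under 0.05. Mcm7, a subunit of the replicative helicase, was at 41.79, 40.63 and 42.54 FPKM against 34.45, 40.15 and 36.84 FPKM. Of 39 genes of mitosis and G2/M 20 were higher and 19 lower (median 0.00, 1 higher and 3 lower without overlap, 2.56% and 7.69%). The 18 p53 targets tested had 12 higher, a median of 0.06 and 3 higher (16.7%) and 1 lower (5.56%) without overlap. The 3 higher were Btg2 above, the kinase Plk2 (13.92, 16.31 and 18.40 FPKM against 11.37, 11.73 and 12.50 FPKM) and the BH3-only gene Pmaip1 (15.91, 15.87 and 17.07 FPKM against 12.08, 9.29 and 13.35 FPKM). Of 15 interferon-stimulated genes tested 13 were lower, with a median of -0.14 and 3 lower without overlap (20%), Irf9, Parp14 and Ddx58, each at 3.85 FPKM or less.

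Glucocorticoid receptor targets split evenly, 10 higher and 10 lower of 20 tested, with a median of 0.00. Without overlap were 1 higher (5%, against 5.7% of all records) and 3 lower (15%, against 8.16%). Among the lower were Klf15 (4.23, 4.86 and 4.68 FPKM against 5.57, 6.34 and 5.93 FPKM) and the stress-response gene Ddit4 (5.61, 5.73 and 6.46 FPKM against 7.15, 7.98 and 9.04 FPKM). The receptor itself, Nr3c1, was at 6.53, 7.90 and 9.54 FPKM against 9.09, 10.35 and 10.16 FPKM in its record of highest mean (-0.29 ± 0.14, limma adjusted p = 0.748). Another tested record of Nr3c1 was at 4.26, 2.87 and 3.97 FPKM in AT10 against 6.26, 14.74 and 3.00 FPKM in AT1. Genes of cholesterol synthesis and uptake had 20 of 28 lower (median -0.10, 3 higher and 5 lower without overlap, 10.7% and 17.9%). TGF-beta pathway genes had 15 of 25 lower (median -0.03, 2 each without overlap, 8% each). YAP and CCN genes had 12 of 21 lower (median -0.02, 1 lower without overlap, 4.76%) and contractile genes 10 of 14 lower (median -0.14, 2 lower without overlap, 14.3%). Without AT10 replicate 3 the median of the contractile genes was -0.01.

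Lists of housekeeping and stress functions had medians close to that of all records. In brackets are the genes higher and lower without overlap, to be read against 5.7% and 8.16% of all records. The median was 0.03 for 67 cytosolic ribosomal protein genes (4 higher and 2 lower without overlap), 0.00 for 73 subunits of oxidative phosphorylation (4 and 6), 0.02 for 31 proteasome subunits (1 and 2), 0.00 for 31 genes of hypoxia and glycolysis (1 and 2), 0.02 for 29 genes of the unfolded protein response (2 and 1), -0.02 for 29 NRF2 and antioxidant genes (2 and 0), 0.00 for 18 SR splicing factors (0 and 1) and -0.02 for 28 ARF GTPases and secretory pathway genes (0 and 3). The largest shares without overlap in these lists were 6.9% higher and 10.7% lower. The 19 heat shock and chaperone genes had a median of 0.02 (3 and 2, 15.8% and 10.5%), with the stress-induced co-chaperone Bag3 at 57.68, 53.22 and 47.77 FPKM against 42.71, 43.22 and 41.95 FPKM (0.30 ± 0.08, limma adjusted p = 0.669). The median was -0.09 for the 13 FLS markers (1 and 2, 7.69% and 15.4%), -0.10 for 6 adipocyte markers (0 and 1, 16.7% lower) and -0.15 for 4 chondrocyte markers (0 and 1, 25% lower). Among the other lists 3 of the 13 mitochondrially encoded genes were tested, and their values ranged over most of the scale within a group.

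**Figure D3:**
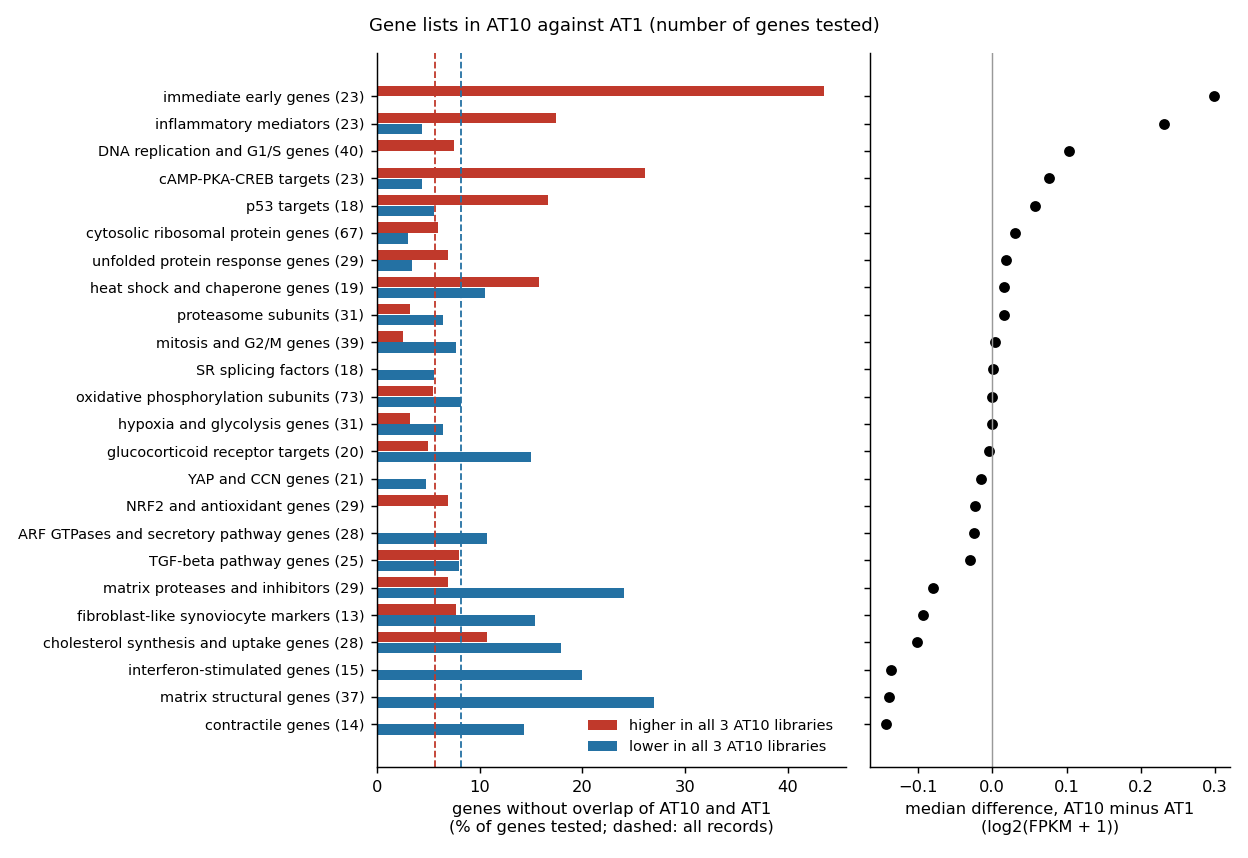
Share of the tested genes of each list whose AT10 libraries all lay above (red) or all below (blue) the AT1 libraries (left, percent, dashed lines at 5.7% and 8.16% for all records) and the median difference of the list (right, log2(FPKM + 1)), for the lists with at least 10 genes tested, the number in brackets. Immediate early genes reach 43.5% higher, and genes of structural matrix proteins 27% lower.

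Of the 30 genes called with an adjusted p under 0.05, 16 (53.3%) had 2 separate levels over the 12 libraries, against 525 of all records (4.52%). The definition asked for a gap in the ordered log2 values of 1 or more, wider than the spread of either level, with at least 2 libraries on each side. In all 16 the gap lay wholly between AT10 and AT1, and it did so in 17 of the 525. A gap that divides the libraries of AT10 or of AT1 widens their spread and makes a call unlikely. These counts are therefore partly set by the call itself. In 14 of the 16 the libraries of FCA, of AT01 or of both divided between the levels. Hspb8, a small heat shock protein, was at 9.08, 9.17 and 10.84 FPKM in AT10 and at 149.56, 100.07 and 91.37 FPKM in AT1 (-3.39 ± 0.20, SE, limma adjusted p = 0.0039), but at 9.86, 10.21 and 95.78 FPKM in FCA and at 10.15, 96.66 and 7.92 FPKM in AT01. Either level was thus found among libraries of 1 group.

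Esm1, a secreted proteoglycan, was at 23.52, 23.42 and 25.53 FPKM in AT10 and 150.35, 114.97 and 155.26 FPKM in AT1 (-2.48 ± 0.13, adjusted p = 0.00298), with 1 library of FCA and 1 of AT01 at the lower level (21.48 and 16.53 FPKM). Oaf was at 49.55 to 51.65 FPKM against 180.61 to 185.96 FPKM (-1.84 ± 0.05, adjusted p = 0.000303), and Cdkn2aipnl at 1.85 to 1.99 FPKM against 16.24 to 19.97 FPKM (-2.73 ± 0.09, adjusted p = 0.000624). The other lower genes were the homeobox gene Hoxc10, Pyurf, Tmem50b, Cdc42se1, the glycolipid transfer protein Gltp, Rfxap, a subunit of the factor that drives MHC class II genes, the beta-catenin inhibitor Ctnnbip1 and the membrane protease Mmp24, with differences from -1.18 to -3.00 on the log2 scale. Those higher were Smim20, at 15.33 to 16.53 FPKM against 0.36 to 1.14 FPKM, the E3 ligase Topors, at 3.31 to 3.85 FPKM against 0.04 FPKM or less, and Prorsd1, at 3.29 to 4.53 FPKM against 0.09 FPKM or less. For Prorsd1 all FCA (3.35 to 3.76 FPKM) and AT01 libraries (4.15 to 4.58 FPKM) were at the level of AT10, so that AT1 alone stood apart.

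For LOC108351137 the 3 AT10 and the 3 AT01 libraries held 0, while it was at 1166.15, 1257.69 and 1155.12 FPKM in AT1 and at 1221.52, 1284.88 and 1228.59 FPKM in FCA. A value of 0 beside more than 1000 FPKM can be a failed estimate in these files, and no fold change is given. LOC100912427 was likewise listed at 0 in all 3 AT10 libraries and at 118.70, 116.40 and 15.12 FPKM in AT1 (limma adjusted p = 0.124).

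**Figure D4:**
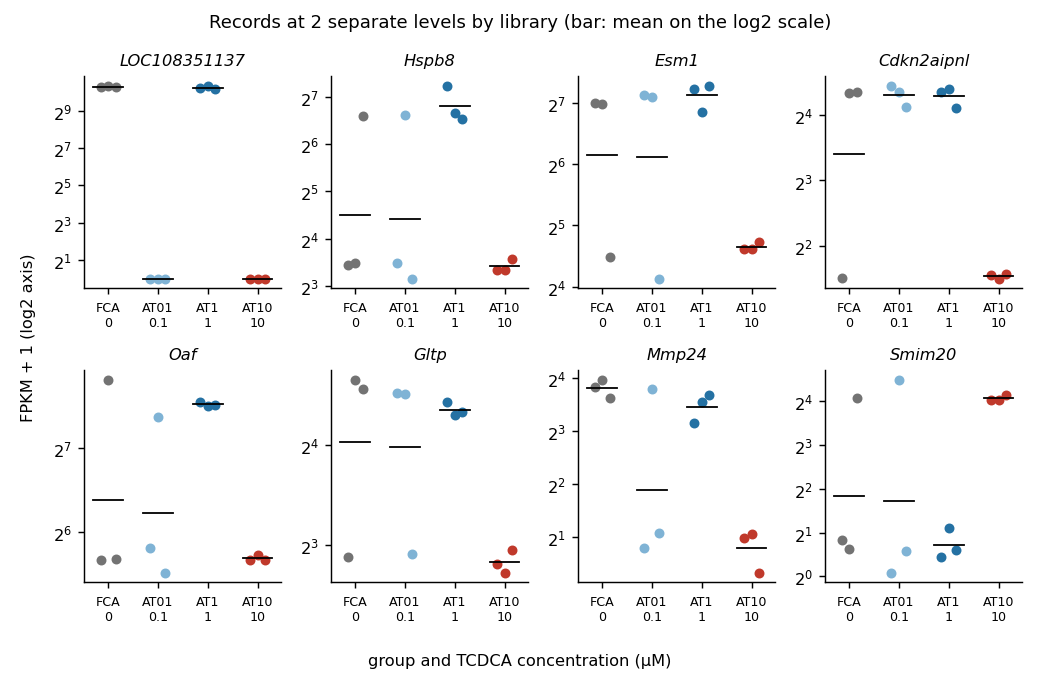
FPKM + 1 (vertical log2 axes) of 8 called genes with 2 separate levels by group and TCDCA concentration in µM, with a point for each library and a bar for the mean on the log2 scale. AT10 and AT1 lie at opposite levels in every panel, and both FCA and AT01 divide between the levels for Hspb8, Esm1, Oaf, Gltp and Smim20, FCA alone for Cdkn2aipnl, AT01 alone for Mmp24 and neither for LOC108351137.

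The other 14 called genes did not meet the definition of 2 separate levels, in which a gap under 1 on the log2 scale does not count. Kif1bp, among them, still lay at either 4.91 to 6.26 or 12.46 to 16.70 FPKM in the 12 libraries. Besides Egr1 and Btg2, 2 rose. Pef1, a calcium-binding protein of the penta-EF-hand family, was at 49.70, 49.21 and 47.59 FPKM in AT10 against 26.60, 26.13 and 27.39 FPKM in AT1 (0.85 ± 0.05, SE, limma adjusted p = 0.00488), and Fez2, a relative of a kinesin adaptor, at 17.09, 14.69 and 15.78 FPKM against 7.73, 8.77 and 8.34 FPKM (0.86 ± 0.08, adjusted p = 0.0302). The values of Pef1 in FCA (52.67, 52.46 and 28.14 FPKM) and AT01 (28.18, 48.20 and 36.19 FPKM) reached from one dose's level to the other's, unlike those of Egr1.

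The 10 that fell included Olfm1, a secreted glycoprotein, at 5.63, 5.25 and 4.94 FPKM against 14.21, 13.81 and 16.28 FPKM (-1.33 ± 0.09, adjusted p = 0.00629), and Kif1bp, a kinesin-binding protein, at 5.41, 4.91 and 5.67 FPKM against 13.97, 12.46 and 13.48 FPKM (-1.18 ± 0.08, adjusted p = 0.00629). In FCA, Olfm1 was at 17.33, 6.58 and 15.99 FPKM and Kif1bp at 13.19, 6.26 and 14.84 FPKM. In AT01 they were at 14.63, 14.52 and 5.45 FPKM (Olfm1) and 16.70, 15.09 and 5.94 FPKM (Kif1bp). Values near either dose's level were thus found within FCA and within AT01. The same held for Fez2, Uvrag, Gnl3l, Tmem150a, RGD1303003 and Spg7, and in AT01 alone for Kdelc2. Some values of Ankrd46 and Zfp764 lay between the doses. Of the 14, Pef1, Olfm1 and Kif1bp passed with any 1 library left out, and Ankrd46 in 4 and RGD1303003 in 3 of the 6 such fits. The call was kept in 1 of the 6 for Egr1, Btg2, Uvrag, Kdelc2, Tmem150a, Gnl3l and Zfp764, and in 0 of the 6 for Fez2 (adjusted p from 0.065 to 0.117) and Spg7 (from 0.0805 to 0.155). None of the 14 passed with the replicate block, and Uvrag also missed the threshold with a pseudocount of 0.1 (adjusted p = 0.0509). Uvrag, which acts in autophagy, was at 9.55, 9.01 and 11.67 FPKM against 20.44, 19.55 and 20.75 FPKM (-0.95 ± 0.10, adjusted p = 0.0493), and Spg7, a subunit of a mitochondrial protease, at 9.99, 9.46 and 9.29 FPKM against 14.70, 15.09 and 14.73 FPKM (-0.58 ± 0.06, adjusted p = 0.0356). The others were Ankrd46, RGD1303003, Zfp764, the nucleolar GTPase Gnl3l, Tmem150a and Kdelc2, an enzyme of the endoplasmic reticulum, with differences from -0.85 to -1.41 on the log2 scale. FCA was nearer to AT10 for 7 of the 14 and AT01 for 5, against 48% and 43.6% of all records. For 3 of the 14 (Egr1, Btg2 and Uvrag) FCA lay nearer to AT10 and AT01 nearer to AT1, the share of all records being 21.4%.

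Below the adjusted threshold, larger or steadier differences were seen in single genes. Arf4, a GTPase of the secretory pathway, was at 94.05, 115.37 and 104.69 FPKM in AT10 against 325.78, 220.79 and 344.21 FPKM in AT1 (-1.47 ± 0.19, SE, limma adjusted p = 0.0941, 0.0194 without AT1 replicate 2). In FCA it was at 89.42, 302.11 and 105.61 FPKM, near either dose's level, and in AT01 at 86.33 to 93.25 FPKM. Cacybp, a calcyclin-binding protein, was at 26.63, 25.07 and 25.75 FPKM against 9.49, 5.66 and 11.58 FPKM (1.48 ± 0.24, adjusted p = 0.215, 0.0407 without AT1 replicate 2). For both Arf4 and Cacybp that was the only 1 of the 6 fits with a library left out to pass. The limma adjusted p of these fits reached 0.299 for Arf4 and 0.486 for Cacybp. Hebp1, a heme-binding protein, was at 12.71, 13.92 and 13.81 FPKM against 8.38, 8.21 and 8.91 FPKM (0.61 ± 0.07, adjusted p = 0.052). Dnajb4, a co-chaperone, was at 19.59, 18.97 and 17.31 FPKM against 11.70, 10.50 and 11.98 FPKM (0.66 ± 0.08, adjusted p = 0.0719), and Ebp, an isomerase of cholesterol synthesis, at 24.74, 24.92 and 21.37 FPKM against 13.65, 15.16 and 15.52 FPKM (0.64 ± 0.09, adjusted p = 0.127). Smad3, which carries the TGF-beta signal, was at 6.21, 4.12 and 5.46 FPKM against 18.64, 19.64 and 6.42 FPKM (-1.22 ± 0.43, adjusted p = 0.748), 1 AT1 library lying near the AT10 level. Its values in FCA (6.89, 16.39 and 17.08 FPKM) and AT01 (6.91, 9.02 and 15.37 FPKM) were also spread between the levels.

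The genes that the study followed up were compared in the same fit. Of these, the study listed only the GAPDH record as differing between AT10 and AT1. It listed GPX3, SRSF9, CTGF and CSTB for other comparisons. Its q-PCR, and its western blots of SRSF9 and GPX3, were read against untreated cells, a comparison that this fit does not make. The record that the study took for GAPDH, the glycolytic enzyme, was LOC108351137, whose values at 0 in AT10 and above 1000 FPKM in AT1 are given above. The record named Gapdh in the files is a different one, at 418.76, 401.91 and 415.32 FPKM in AT10 against 388.82, 368.61 and 443.90 FPKM in AT1 (0.05 ± 0.08), and it overlapped between the doses. Srsf9, a splicing factor of the SR family, was at 14.97, 29.37 and 14.34 FPKM in AT10 against 33.01, 35.53 and 30.19 FPKM in AT1 (-0.79 ± 0.28, SE, limma adjusted p = 0.748), with AT10 replicate 2 close to the AT1 level, and without that library the difference was -1.11 (adjusted p = 0.0376). Gpx3, the secreted glutathione peroxidase, was at 289.54, 309.39 and 114.00 FPKM against 362.74, 127.47 and 346.08 FPKM (-0.22 ± 0.57, adjusted p = 0.939), 1 low library in each group. Ctgf, a matricellular growth factor, was at 190.01, 716.87 and 141.59 FPKM against 786.66, 649.42 and 680.60 FPKM (-1.39 ± 0.61, adjusted p = 0.748), and without AT10 replicate 2 the difference was -2.09 (adjusted p = 0.0321). Cstb, a cysteine protease inhibitor, was at 218.08, 186.61 and 130.74 FPKM against 187.17, 187.48 and 174.88 FPKM (-0.07 ± 0.19), and the zinc transporter Slc39a3 was at 10.06, 3.12 and 10.30 FPKM against 10.06, 10.12 and 9.94 FPKM (-0.46 ± 0.41). LOC100363502 was at 58.38, 57.86 and 62.18 FPKM against 138.31, 129.66 and 56.19 FPKM (-0.75 ± 0.35, adjusted p = 0.748), or -1.16 (adjusted p = 0.0137) without AT1 replicate 3. For Srsf9, Ctgf and LOC100363502 the fit named was the only 1 of the 6 with a library left out to pass. In these fits the limma adjusted p reached 0.88 for each of these genes. The reference gene Actb (955.78 to 1435.55 FPKM against 1195.59 to 1295.36 FPKM, -0.02 ± 0.17) overlapped between the doses, with AT10 replicate 3 lowest.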

How the data were processed

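Poly(A) RNA of the 12 libraries was sequenced as paired ends. Reads were mapped by the authors with HISAT2 and assembled with StringTie, and the deposited table gives FPKM, rounded to 2 decimals, of 22442 gene records. Ballgown served for their tests. The submitters' processing notes also name cutadapt and edgeR, and the genome build is not given in the sources used here. The labels and the paper differ in sequencer and input RNA. Depth is unknown, since the FPKM come without counts.

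The 11611 records that averaged 1 FPKM or more in the 12 libraries were tested as log2(FPKM + 1) with limma 3.58.1 in R 4.3.3 (variance trend, the 6 libraries of AT10 and AT1 only, no covariate), with Benjamini-Hochberg adjustment over all 11611. Fold changes on this scale understate those of low genes. Of a gene name with several records, that of the highest mean was used. Replicate numbers recur in the groups, but the deviations of same-numbered libraries correlated at -0.02, 0.00 and -0.06, so they were not used as pairs, although the paper calls each number a set of the experiment. The members and the 31 gene lists were chosen with earlier results of these data known. Genes were named by rule: up to 30 with an adjusted p under 0.05, per direction the 10 largest differences under the criterion of the study without overlap and the 10 of smallest p among records of at least 10 FPKM without overlap or 2 levels, up to 3 of smallest p in each list, and the genes of the study. Genes named outside the rule were chosen after their values were seen. The test was tested on simulated data before use. Motifs were searched in Python 3.11.15, and figures drawn with matplotlib 3.10.9. Alternatives are given in the closing section. Coordinates of the records were not used, and promoter coordinates are those of RefSeq, GRCr8.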

Additional observations from a re-analysis of the deposited data

How the results depend on the processing

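The number of genes with an adjusted p under 0.05 was 3 with 1 fit over all 12 libraries (LOC108351137, Prorsd1 and Egr1), 2 with a nested F test like that of Ballgown, 1 with a replicate block and 8 with the records at 2 levels left out, against 30 as reported. All of these were among the 30, and an unadjusted p under 0.05 was reached by 763, 1021, 564 and 750 records. The criterion of the study called 28 records of at least 10 FPKM on average and 40 with the records at 2 levels left out. Of the records of at least 10 FPKM on average, 675 did not overlap, fewer having been tested. With each library left out in turn the adjusted count lay between 26 and 50, that under the criterion between 77 and 108 and that without overlap between 2635 and 2955, which fewer libraries per group raise by construction. Each of the 6 libraries moved the count without overlap over 1.5 times. The adjusted count and that under the criterion were moved so far by AT1 replicate 3 (50 and 108 without it), and the latter also by AT10 replicate 3 (106). Median-of-ratios scaling gave 791 higher and 847 lower records without overlap, and left the median of the immediate early genes at 0.31.

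The paper ties the replicate numbers to repeats of the experiment, without saying whether a repeat shared cells or a day. The deviations of same-numbered libraries did not move together, so the block was kept as an alternative, and whether the numbers pair the libraries is not settled. A call lost under the block is no sign of a smaller difference. With 1 library left out, genes that did not pass the test turned in sign. Gpx3 ranged from -0.70 to 0.25 (0.25 without AT10 replicate 3, 0.05 without AT1 replicate 1, 0.01 without AT1 replicate 3), Cstb from -0.23 to 0.14 (without AT10 replicate 3), Slc39a3 from -0.71 to 0.018 (without AT10 replicate 2), Gapdh from -0.012 (without AT1 replicate 2) to 0.12 and Actb from -0.12 to 0.17 (without AT10 replicate 3, and 0.0018 without AT1 replicate 3). The cause was not tested. Leaving out 1 library kept the median of the immediate early genes between 0.24 and 0.33, that of the inflammatory mediators between 0.04 and 0.43 and that of the structural matrix genes between -0.19 and -0.09. The depth behind the values is unknown, so no limit of detection can be given.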

Other observations

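One of the records of the mitochondrially encoded Mt-cyb was listed at 0 in all 3 AT10 libraries and at 7.96, 148.43 and 2543.40 FPKM in AT1, with 0 to 5.43 FPKM in FCA and AT01. Mt-co1 ranged from 10.52 to 822.91 FPKM in AT10 and from 0 to 2000.73 FPKM in AT1. Gapdh-ps2 was at 195.30 to 224.55 FPKM in the 6 libraries of the 2 doses, while replicate 3 of FCA and of AT01 held 0.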
